A study of Homo sapiens with 12 samples.

Results

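The comparison described here follows cells kept in 60 µM PFOS between day 8 and day 12 of cardiac differentiation, and uses 4 of the 12 libraries of the series: 2 from day 8 and 2 from day 12, chosen by their titles. All cells were of the H9 line, an established human embryonic stem cell line, taken toward cardiomyocytes, and PFOS, a perfluorinated alkyl sulfonate, was in the medium from day 0, so the cells at both days carried the exposure. The other 8 libraries give the same interval without the compound (DMSO, the vehicle, 2 libraries a day) and with 60 µM F-53B, a chlorinated polyfluoroalkyl ether sulfonate (2 libraries a day), also from day 0. The labels number the libraries of a group 1 and 2 and say nothing of separate cultures. The p-values therefore reflect the spread between these libraries alone, and that spread may be technical.

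As background, cardiac progenitors in such cultures stop dividing, shut down genes of the stem cell and early mesoderm, and switch on the contractile apparatus, the sarcomere, with the ion channels and the oxidative metabolism that power it. Epicardial cells, the outer lining of the heart, and fibroblast-like cells can arise from the same progenitors, and so can small numbers of endothelial and gut endoderm cells. Values are FPKM, which scales fragments by transcript length and library size, as deposited. Tests were run on log2(FPKM + 1) over 14080 genes, and log2 changes are day 12 minus day 8 with the model's standard error (SE). A gene is said to have risen or fallen when its Benjamini-Hochberg adjusted p over all 14080 genes was under 0.05. Folds are ratios of the group means in FPKM. Gene lists were chosen with earlier results of these data known, so their counts describe and do not test.

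The promoters of genes on which the results turn are shown first, as the 130 bases before the RefSeq transcription start on GRCh38.p14, read 5′ to 3′ on the gene's strand. In the first 4, of cell division genes that fell, capitals mark TTTGAA, the core of the cell cycle genes homology region, and CCAAT, the NF-Y box, on either strand (in MKI67 one of each overlap by 1 base). In AFP, the gene with the largest rise, capitals mark GTTANT and NTTAAC with any base between them, a form of the site of the hepatic factor HNF1. In TXNIP, whose change over time differed most clearly from that with DMSO, they mark 2 copies of CACGNG with any 5 bases between them, the paired E-box form of a carbohydrate response element.
PLK1, chr16:23678759-23678888, plus strand: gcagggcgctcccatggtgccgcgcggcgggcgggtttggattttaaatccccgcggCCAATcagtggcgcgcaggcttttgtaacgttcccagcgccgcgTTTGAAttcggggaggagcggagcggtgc
CCNB2, chr15:59105016-59105145, plus strand: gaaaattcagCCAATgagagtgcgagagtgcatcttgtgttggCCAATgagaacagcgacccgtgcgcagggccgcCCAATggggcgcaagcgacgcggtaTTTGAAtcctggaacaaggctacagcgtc
KIF11, chr10:92593000-92593129, plus strand: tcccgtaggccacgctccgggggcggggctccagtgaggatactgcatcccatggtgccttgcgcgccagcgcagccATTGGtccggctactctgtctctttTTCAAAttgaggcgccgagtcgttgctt
MKI67, chr10:128126424-128126553, minus strand: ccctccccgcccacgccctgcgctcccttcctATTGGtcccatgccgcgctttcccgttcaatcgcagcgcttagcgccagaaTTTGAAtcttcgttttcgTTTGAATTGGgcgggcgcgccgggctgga
AFP, chr4:73436091-73436220, plus strand: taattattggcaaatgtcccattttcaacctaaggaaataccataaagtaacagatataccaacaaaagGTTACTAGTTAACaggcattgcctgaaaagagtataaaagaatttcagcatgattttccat
TXNIP, chr1:145996580-145996709, minus strand: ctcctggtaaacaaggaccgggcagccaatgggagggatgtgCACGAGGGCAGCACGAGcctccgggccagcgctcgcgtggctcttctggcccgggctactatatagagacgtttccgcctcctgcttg
A match is a description of letters and not a site in use. Windows of 250 bases before to 50 after the start were searched on both strands for 27305 genes, 18 of the 25 cell cycle genes listed among them. TTTGAA was found in 11 of those 18 and in 15.4% of all windows, CCAAT in 16 and in 35.7%, and both in 10 and in 6.08%. The HNF1 form was in 2 of 16 hepatic and endoderm genes, AFP and HNF4A, and in 0.0916% of all windows. The paired E-box form was in 20 of all windows, or 0.0732%, TXNIP's included and not ARRDC4's.

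FPKM totals of the 4 PFOS libraries were between 406768 and 439918, and 13142 to 13292 genes reached 1 FPKM; read depth is unknown. Replicates correlated across genes with r = 0.992 at both days. The 7 cardiomyocyte markers all reached 1 FPKM in each of the 4 libraries, and their summed level was 3035 and 4619.7 FPKM at day 8 and 8693 and 7945 FPKM at day 12. The 2 day 8 libraries stood apart in these genes, replicate 1 being the lower for sarcomere, glycolysis and mitochondrial genes, so results that rest on it are also given without it. Summed epicardial markers stood at 275 and 201 FPKM at day 8 and 145 and 153 FPKM at day 12, and fibroblast markers at 1914 and 1517 FPKM at day 8 and 702 and 603 FPKM at day 12. Endothelial markers summed to 61.3 and 61.9 FPKM at day 8 and 39.6 and 34.8 FPKM at day 12, most of it KDR, and blood markers to 4.51 and 4.48 FPKM at day 8 and 2.59 and 1.72 FPKM at day 12, with HBZ and SPI1 under 1 FPKM in all 4. Neural markers summed to 4.47 and 3.25 FPKM at day 8 and 6.5 and 6.61 FPKM at day 12, with PAX6, SOX1 and ELAVL3 under 1 FPKM. In bulk RNA, fewer cells of a type and less RNA per cell cannot be told apart.

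Between day 8 and day 12 with PFOS, 5524 of 14080 genes passed the test (39.2%), of which 2771 rose (19.7% of those tested) and 2753 fell (19.6%). With each library scaled to the same FPKM total the split was 2171 against 3336. At least a 2-fold change in log2(FPKM + 1) was reached by 767 of them, 390 up and 377 down. Among genes with a mean of at least 5 FPKM and no overlap between the days, the 12 largest rises included the hepatic genes AFP, AHSG and APOA2 and the heart muscle genes IRX4, MYH7 and LAMA2, and the 12 largest falls included LIN28A of stem cells, the protease PLAT and the WNT antagonist FRZB. The plot of gene levels by library shows 10 genes of each direction.

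**Figure D1:**
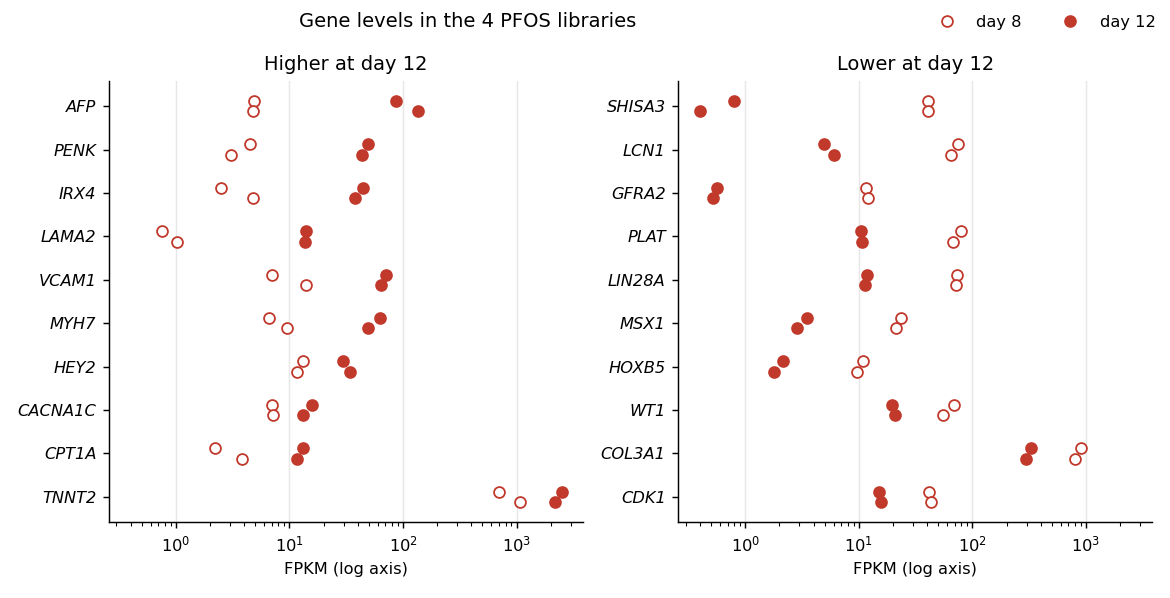
FPKM on a log axis (x) of 10 genes that rose and 10 that fell, 1 row a gene, in the 2 day 8 libraries (open circles) and the 2 day 12 libraries (filled circles) with PFOS. In each of the 20 genes the day 8 and day 12 libraries do not overlap.

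AFP, the alpha-fetoprotein of fetal liver and yolk sac (chr4:73431138-73456174, GRCh38), had the largest rise, from 4.93 and 4.83 to 86.2 and 135 FPKM (log2 change 4.21 ± 0.36 (SE), adjusted p = 9.6e-05). PENK, which encodes the precursor of the enkephalin peptides, rose from 4.5 and 3.08 to 49.1 and 43.6 FPKM (log2 change 3.32 ± 0.24 (SE), adjusted p = 1.0e-05). IRX4, a transcription factor of the ventricle (chr5:1877413-1887236), rose from 2.48 and 4.76 to 44.2 and 38 FPKM (log2 change 3.23 ± 0.46 (SE), adjusted p = 0.0012). In all 3 both day 12 libraries lay above both day 8 libraries by a wide margin. LAMA2, the laminin chain of muscle basement membrane, rose 15.7-fold, from 0.75 and 1.03 to 14.1 and 13.9 FPKM (log2 change 2.99 ± 0.18 (SE), adjusted p = 9.6e-07). RRAD, a small GTPase that restrains calcium channels, rose from 1.73 and 3.35 to 33.6 and 24.3 FPKM (log2 change 3.10, adjusted p = 1.3e-04). SLC27A6, a fatty acid transporter of heart muscle, went from 1.26 and 2.61 to 15.1 and 16.8 FPKM (log2 change 2.57, adjusted p = 1.2e-04). VCAM1, an adhesion molecule also found on early cardiomyocytes, rose from 7.07 and 14.1 to 70.4 and 64.2 FPKM (log2 change 2.63, adjusted p = 0.005). The day 8 libraries of RRAD, SLC27A6, VCAM1 and FAM189A2 differed, as a ratio, by more than the day 12 libraries did, and the day 12 libraries lay well above either. TRH, which encodes thyrotropin-releasing hormone, rose from 37.4 and 47 to 309 and 312 FPKM (log2 change 2.86, adjusted p = 0.0099), a call that was lost without day 8 PFOS replicate 1 (adjusted p = 0.053).

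SHISA3, which encodes a membrane protein that retains Frizzled and FGF receptors inside the cell (chr4:42397839-42402487), fell most, from 40.4 and 40.5 to 0.79 and 0.40 FPKM (log2 change -4.71 ± 0.32 (SE), adjusted p = 1.7e-05). LCN1, a lipocalin, fell from 74.6 and 65.2 to 4.95 and 6.03 FPKM (log2 change -3.45 ± 0.15 (SE), adjusted p = 2.5e-07). PAEP, another lipocalin, went from 14.5 and 10.6 to 0.62 and 0.18 FPKM (log2 change -3.28, adjusted p = 8.6e-06). GFRA2, the receptor for neurturin, fell from 11.6 and 12.2 to 0.57 and 0.52 FPKM (log2 change -3.06 ± 0.12 (SE), adjusted p = 6.3e-08). At day 12 SHISA3, PAEP and GFRA2 were under 1 FPKM in both libraries. PLA2G2A, a secreted phospholipase, fell from 18 and 23.8 to 1.68 and 1.78 FPKM, and KEL, the Kell blood group endopeptidase, from 92.3 and 66.4 to 9.25 and 9.73 FPKM (log2 changes -2.99 and -2.92). PRPH, peripherin, fell from 16.6 and 17.1 to 0.76 and 0.55 FPKM, and RIMS1, a synaptic scaffold, from 11.9 and 11 to 0.62 and 0.77 FPKM (log2 changes -3.43 and -2.88). ADAM12, a metalloprotease, fell from 22 and 18.1 to 2.47 and 2.62 FPKM, a log2 change of -2.57. The remaining 3 of the 12 largest falls, PLAT, FRZB and LIN28A, are described with their groups.

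Contractile genes were higher at day 12. All 24 sarcomere genes tested were higher in both day 12 libraries than in both day 8 libraries, against 33.9% of all genes tested, and 17 of the 24 rose and none fell, with a median log2 change of 1.38. The list held 1.66% and 2.37% of all FPKM at day 8 and 4.26% and 3.98% at day 12. MYH7, the slow and ventricular myosin heavy chain (chr14:23412738-23435718), stood at 6.61 and 9.46 FPKM at day 8 and 62.7 and 49.1 FPKM at day 12 (log2 change 2.66 ± 0.51 (SE), adjusted p = 0.0055). MYH6, the atrial heavy chain, whose reads may be exchanged with those of its near-identical neighbour MYH7, stood at 355 and 563 FPKM at day 8 and 1857 and 1318 FPKM at day 12 (log2 change 1.81 ± 0.54 (SE), adjusted p = 0.034). TNNT2, cardiac troponin T, stood at 696 and 1081 FPKM at day 8 and 2483 and 2184 FPKM at day 12 (log2 change 1.42 ± 0.36 (SE), adjusted p = 0.017). As a ratio, the 2 day 8 libraries differed by more than the 2 day 12 libraries in all 3 genes. TPM1, tropomyosin, rose from 1809 and 2236 to 3828 and 3579 FPKM (log2 change 0.88 ± 0.15 (SE), adjusted p = 8.1e-04). MYPN, a protein of the Z-disc, went from 0.43 and 0.61 to 2.81 and 2.67 FPKM (log2 change 1.30 ± 0.15 (SE), adjusted p = 6.8e-05). MYL2, the ventricular light chain, rose from near 0 (0 and 0.14 FPKM) to 1.51 and 3.13 FPKM (log2 change 1.59 ± 0.21 (SE), adjusted p = 1.5e-04). TNNI1, the fetal troponin I, rose from 162 and 237 to 350.2 and 336 FPKM (log2 change 0.80 ± 0.19 (SE), adjusted p = 0.009). TNNI3, the adult form, was at 74 and 104 FPKM at day 8 and 119.8 and 114 FPKM at day 12 (log2 change 0.41, adjusted p = 0.17). MYL7, the atrial light chain and the most abundant of the list per length, was at 1903 and 2847 FPKM at day 8 and 3996 and 4107 FPKM at day 12 (log2 change 0.80, adjusted p = 0.12). With only the PFOS libraries in the fit MYL7 passed (adjusted p = 0.0085), and 21 of the 24 genes rose. The alternatives that kept every PFOS library gave 16 to 21 rises.

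The count of sarcomere genes that passed depended on single libraries: it was 5 of 24 without day 8 PFOS replicate 1, 16 without day 8 replicate 2, 7 without day 12 replicate 1 and 9 without day 12 replicate 2. TNNT2, MYH6, TNNI1 and NKX2-5 lost their calls in such fits (highest adjusted p = 0.099, 0.16, 0.061 and 0.19), whereas MYH7, MYL2, MYPN and TPM1 kept theirs under every alternative.

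Cardiac transcription factors moved in both directions, with 7 of 18 up and 3 down, against 19.7% up and 19.6% down over all genes tested. HEY2, a Notch-responsive repressor of the compact ventricle, rose from 13.2 and 11.6 to 29.6 and 34.4 FPKM (log2 change 1.30 ± 0.10 (SE), adjusted p = 4.0e-06). TBX5 and HAND2, factors of the heart fields, rose by smaller steps, from 25.9 and 26.7 to 37.2 and 39.2 FPKM and from 74.2 and 72.5 to 99.2 and 98.5 FPKM (log2 changes 0.52 and 0.43). HAND1, a factor of the first heart field and of early extraembryonic mesoderm, fell from 247 and 253 to 119.8 and 133 FPKM (log2 change -0.98 ± 0.09 (SE), adjusted p = 9.9e-06). NKX2-5, which defines cardiac progenitors and cardiomyocytes, stood at 26.4 and 47.3 FPKM at day 8 and 125 and 117 FPKM at day 12 (log2 change 1.74 ± 0.55 (SE), adjusted p = 0.041), day 8 replicate 1 being the lowest. GATA4 and NR2F1 also fell, and MEF2C and PROX1 rose.

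Of 21 calcium handling and ion channel genes 17 rose and 1 fell (median log2 change 0.92). CACNA1C, the L-type calcium channel, rose from 7.01 and 7.18 to 15.7 and 13.1 FPKM (log2 change 0.92 ± 0.10 (SE), adjusted p = 4.6e-05). CACNA1G, a T-type channel, went from 4.18 and 3.51 to 7.82 and 7.62 FPKM (log2 change 0.85 ± 0.11 (SE), adjusted p = 1.2e-04). KCNJ3, a potassium channel of atrial and pacemaker cells, went the other way, from 16.9 and 13.8 to 2.16 and 2.44 FPKM (log2 change -2.30 ± 0.15 (SE), adjusted p = 1.7e-06). Its day 8 and day 12 libraries were far apart. Leaving out 1 library gave 12 to 16 rises in the list.

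Among 14 genes of natriuretic peptides and muscle energy supply 8 rose and none fell. HSPB7, a small heat shock protein of heart muscle, rose from 138 and 234 to 587 and 654 FPKM (log2 change 1.78 ± 0.24 (SE), adjusted p = 4.7e-04). CRYAB, alpha-B crystallin, went from 21 and 35.7 to 62.6 and 83.8 FPKM (log2 change 1.37 ± 0.27 (SE), adjusted p = 0.0043). NPPA, the atrial natriuretic peptide, was at 16.5 and 27.8 FPKM at day 8 and 41.2 and 71.2 FPKM at day 12 (log2 change 1.30, adjusted p = 0.063). It passed with no filter, with a filter at 5 FPKM and without robust moderation and trend (adjusted p = 0.038, 0.049 and 0.027). NPPB, the B-type peptide, was at 3.0 and 1.48 FPKM at day 8 and 4.75 and 7.46 FPKM at day 12 (log2 change 1.15, adjusted p = 0.043), a call lost in 3 of the 4 fits that leave out a library (highest adjusted p = 0.2). The count in the list fell to 4, 3 and 3 without day 8 replicate 1, day 12 replicate 1 and day 12 replicate 2.

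Mitochondrial and fuel genes rose with them. Their list counts are to be set against 19.7% of all genes tested that rose and 19.6% that fell. Of 23 genes of oxidative phosphorylation 20 rose and none fell, in small steps (median log2 change 0.48), and the list went from 0.72% and 0.85% of all FPKM to 1.04% and 1.08%. COX5B, a subunit of complex IV, rose from 146 and 183 to 287 and 279 FPKM (log2 change 0.79 ± 0.12 (SE), adjusted p = 4.1e-04). SDHA of complex II went from 58 and 68.2 to 112 and 100.3 FPKM (log2 change 0.75, adjusted p = 3.2e-04). UQCRC1 of complex III went from 98.6 and 113 to 174 and 163 FPKM (log2 change 0.67, adjusted p = 5.8e-04). The count was 11 without day 8 PFOS replicate 1 and 12 without day 12 replicate 2. CPT1A and CPT1B, the outer membrane carnitine transferases that admit fatty acids to mitochondria, rose from 2.22 and 3.79 to 13.2 and 11.6 FPKM and from 10.4 and 10.9 to 21.4 and 20.5 FPKM (log2 changes 1.77 ± 0.19 (SE) and 0.91 ± 0.13 (SE), adjusted p = 3.9e-05 and 2.2e-04). Of 18 PPAR targets and fatty acid oxidation genes 9 rose and 2 fell, with ACSL1 going from 7.41 and 8.71 to 14 and 17.1 FPKM and HADHB from 53.9 and 60.9 to 84 and 86.6 FPKM (log2 changes 0.86 and 0.57). Glycolysis and hypoxia genes gave 11 rises and 2 falls of 24, with HK1, hexokinase, from 59 and 73.5 to 119 and 104 FPKM (log2 change 0.74, adjusted p = 0.0014). ADM, adrenomedullin, went from 0.99 and 1.79 to 6.47 and 5.82 FPKM (log2 change 1.60, adjusted p = 3.7e-04). Without day 8 replicate 1 the rises in that list were 3, and without day 12 replicates 1 and 2 they were 3 and 6.

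Cell division genes fell together. Of 25 cell cycle genes 24 fell and none rose, and the count of 24 was the same under every alternative; the median log2 change was -1.14 and the range -1.42 to -0.18. The list took 0.14% and 0.13% of all FPKM at day 8 and 0.059% and 0.052% at day 12. CDK1, the kinase that starts mitosis, fell from 41.6 and 43.2 to 15 and 15.5 FPKM (log2 change -1.42 ± 0.08 (SE), adjusted p = 7.4e-07). PLK1, a mitotic kinase whose promoter is printed above, fell 2.86-fold, from 25.8 and 23.9 to 9.13 and 8.27 FPKM (log2 change -1.42 ± 0.08 (SE), adjusted p = 5.5e-07). TTK, a spindle checkpoint kinase, and AURKB, of the chromosomal passenger complex, fell from 11.4 and 11 to 4.03 and 3.72 FPKM and from 28.1 and 24.7 to 10.9 and 10 FPKM (log2 changes -1.32 and -1.26). All 25 genes were lower in both day 12 libraries than in both day 8 libraries, against 32.1% of all genes. DNA replication genes fell less steeply, 17 of 22 with none up and a median of -0.43: RRM2, of ribonucleotide reductase, went from 14.7 and 13.1 to 6.54 and 6.71 FPKM (log2 change -0.96, adjusted p = 5.1e-06). RRM1, its large subunit, went from 30.6 and 29.8 to 19.5 and 19.4 FPKM (log2 change -0.61, adjusted p = 8.0e-05). Leaving out 1 library gave 13 to 18 falls there.

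**Figure D2:**
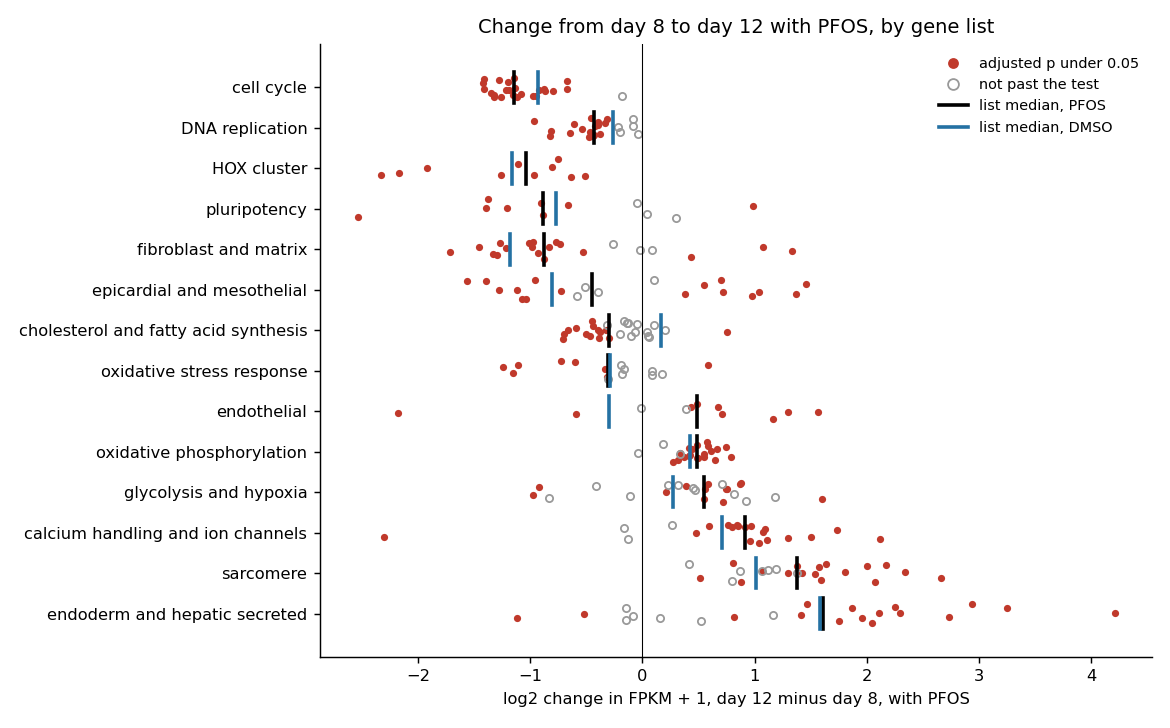
Log2 change in FPKM + 1 from day 8 to day 12 with PFOS (x) for each tested member of 14 gene lists (rows); filled points passed the test, open points did not, and bars are the list medians with PFOS (black) and DMSO (blue). Cell cycle genes lie to the left of 0 (median -1.14) and sarcomere genes to the right (median 1.38); the medians of the endothelial and the sterol lists lie on opposite sides of 0 with PFOS and DMSO.

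Of 11 pluripotency genes 7 fell and 1, TDGF1, rose, a rise that was not called without day 8 replicate 1 or day 12 replicate 2. The other 3 pluripotency genes, POU5F1, NANOG and GDF3, did not pass the test. Of 7 mesendoderm and early mesoderm genes 2 fell (NODAL and FGF8) and 5 did not pass (median 0.02). The share of all genes tested that fell was 19.6%. LIN28A, which blocks maturation of the let-7 miRNAs (chr1:26410778-26429722), fell 6.21-fold, from 72.5 and 71.1 to 11.9 and 11.2 FPKM (log2 change -2.54 ± 0.09 (SE), adjusted p = 6.3e-08), and its relative LIN28B from 17.6 and 18 to 5.93 and 6.59 FPKM (log2 change -1.38 ± 0.08 (SE), adjusted p = 1.0e-06). ZFP42 and DPPA4, both markers of pluripotent cells, fell from 19.1 and 15.7 to 6.38 and 5.57 FPKM and from 34.5 and 29.4 to 12.4 and 14.1 FPKM (log2 changes -1.40 and -1.21). NODAL, a TGF-beta ligand that patterns mesendoderm, fell from 8.78 and 8.58 to 1.12 and 1.02 FPKM (log2 change -2.23 ± 0.17 (SE), adjusted p = 4.5e-06). In these 5 genes no day 8 value overlapped a day 12 value.

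The HOX genes, which give cells their position along the body axis, fell as a block: all 10 that reached the expression filter, of 25 listed, passed the test, with a median of -1.04. Among all genes tested 19.6% fell and 19.7% rose, shares that also apply to the retinoic acid counts below. HOXB6 went from 10.8 and 9.75 to 1.43 and 1.08 FPKM (log2 change -2.33 ± 0.22 (SE), adjusted p = 2.1e-05). HOXB5 went from 10.8 and 9.65 to 2.14 and 1.8 FPKM (log2 change -1.92 ± 0.12 (SE), adjusted p = 1.2e-06). HOXB4 went from 19 and 18.9 to 7.83 and 6.9 FPKM (log2 change -1.26, adjusted p = 8.4e-06). HOXB2 went from 36.1 and 39.7 to 17.6 and 20.2 FPKM (log2 change -0.97, adjusted p = 1.2e-05). The steps were steeper in HOXB5 and HOXB6 than in HOXB2, a difference in size that was not tested. Without 1 library 7 to 9 of the 10 passed. Of 12 retinoic acid genes 4 rose and 3 fell, and 2 rose without day 8 replicate 1, day 12 replicate 1 or day 12 replicate 2. RDH10, which makes retinal, rose from 8.21 and 6.49 to 25.1 and 30.7 FPKM (log2 change 1.79 ± 0.15 (SE), adjusted p = 7.1e-06). RXRG, a nuclear receptor, went from 7.95 and 9.11 to 28.5 and 28.8 FPKM (log2 change 1.64, adjusted p = 1.8e-04). CRABP1, a retinoic acid carrier, fell from 3.86 and 3.37 to 1.11 and 0.72 FPKM (log2 change -1.27, adjusted p = 1.6e-05).

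Matrix genes fell. Of 21 fibroblast and matrix genes 15 fell and 3 rose (VCAN, LOX and FBN1), with a median of -0.88, and the list went from 1.16% and 0.94% of all FPKM to 0.57% and 0.52%. COL3A1, fibrillar collagen III, fell from 907 and 794 to 326 and 294 FPKM (log2 change -1.45 ± 0.11 (SE), adjusted p = 4.0e-06). FBLN1, fibulin, fell from 118 and 97.2 to 43.1 and 42.6 FPKM (log2 change -1.30 ± 0.09 (SE), adjusted p = 1.9e-06). COL5A2 went from 65.3 and 56.7 to 31.8 and 28.9 FPKM and PDGFRA, a receptor of mesenchymal progenitors, from 46.1 and 48.5 to 24.7 and 27.8 FPKM (log2 changes -0.98 and -0.83). The 6 fibroblast markers summed above all belong to this list, so their lower sum is not a separate result. Summed epicardial markers were lower too, and the part of cell make-up in the result was not tested. Of 14 matrix proteases and inhibitors 7 fell and 4 rose, and 2 rose without day 8 replicate 2. PLAT, tissue plasminogen activator, fell from 79.9 and 67.6 to 10.4 and 10.7 FPKM (log2 change -2.69 ± 0.13 (SE), adjusted p = 2.7e-07). PLAU, urokinase, went from 6.81 and 6.89 to 1.15 and 1.77 FPKM (log2 change -1.69 ± 0.13 (SE), adjusted p = 4.8e-06). TFPI2, an inhibitor of matrix proteases, rose from 0.81 and 1.6 to 10.8 and 12.1 FPKM (log2 change 2.52 ± 0.20 (SE), adjusted p = 8.9e-06).

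Basement membrane chains changed in both directions, 5 up and 5 down of 12. Over all genes tested 19.7% rose and 19.6% fell, the shares to set beside the basement membrane, epithelial and smooth muscle counts. The rises were 3 without day 8 replicate 1, day 8 replicate 2 or day 12 replicate 1, and with equal FPKM totals, and the falls 3 without day 8 replicate 1 or day 12 replicate 2. LAMA1, the laminin chain of early epithelia, fell from 31.9 and 31.6 to 10.9 and 9.13 FPKM (log2 change -1.58 ± 0.21 (SE), adjusted p = 3.0e-04) while LAMA2 rose, and LAMC1 and the nidogen NID2 fell from 176 and 145 to 79.9 and 75.2 FPKM and from 122 and 121 to 69.5 and 69.3 FPKM (log2 changes -1.03 and -0.80). KRT18 and KRT8, the keratin pair of simple epithelia, fell from 772 and 704 to 351 and 307 FPKM and from 1469.5 and 1302 to 784 and 641 FPKM (log2 changes -1.16 and -0.96, adjusted p = 2.2e-06 and 4.1e-05). CLDN6, a claudin of embryonic epithelia, rose from 51 and 62.3 to 131 and 154 FPKM (log2 change 1.32 ± 0.11 (SE), adjusted p = 7.1e-06). EPCAM went from 10.5 and 12.9 to 22.6 and 23.7 FPKM (log2 change 0.93, adjusted p = 0.0014). Of 13 epithelial genes 2 rose and 5 fell, and the falls were 3 without day 8 replicate 1 or day 12 replicate 2. In the smooth muscle list of 11, TAGLN, transgelin, rose from 54.9 and 55 to 123 and 116 FPKM (log2 change 1.11 ± 0.11 (SE), adjusted p = 2.2e-05), and CALD1 and DES fell from 109.9 and 92.1 to 65.2 and 60.8 FPKM and from 153 and 149.8 to 115 and 95.1 FPKM (log2 changes -0.67 and -0.53), 3 up and 2 down in all.

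Epicardial genes split evenly, 8 up and 8 down of 20 (median -0.45), against 19.7% up and 19.6% down over all genes tested. With only the PFOS libraries in the fit 6 rose and 9 fell. The list's share of all FPKM was 0.29% and 0.24% at day 8 and 0.15% and 0.13% at day 12. WT1, the transcription factor of the epicardium, fell from 69.2 and 54.7 to 19.4 and 20.8 FPKM (log2 change -1.57 ± 0.16 (SE), adjusted p = 4.9e-05), with LRRN4, a mesothelial surface protein, from 58.1 and 48.4 to 25.5 and 22.3 FPKM and LHX2 from 27 and 21.6 to 11.2 and 10.7 FPKM (log2 changes -1.12 and -1.08). TBX18, another epicardial factor, was at 83.7 and 59.1 FPKM at day 8 and 43 and 50.4 FPKM at day 12 (log2 change -0.59, adjusted p = 0.097), and the groups did not overlap. It passed with only the PFOS libraries in the fit (adjusted p = 0.022). ALDH1A2, which makes retinoic acid in the epicardium (chr15:57953424-58497866), rose from a low level, from 0.40 and 0.42 to 3.07 and 2.71 FPKM (log2 change 1.46 ± 0.18 (SE), adjusted p = 9.2e-05). SEMA3D went from 0.30 and 0.37 to 2.18 and 2.76 FPKM (log2 change 1.37 ± 0.12 (SE), adjusted p = 8.4e-06). ALDH1A2 and SEMA3D stayed under 4 FPKM, far below WT1 and TBX18 at either day.

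Of 11 endothelial genes 7 rose and 2, TEK and KDR, fell (median 0.49), against 19.7% and 19.6% of all genes tested. The list's share of all FPKM was 0.024% and 0.026% at day 8 and 0.026% and 0.023% at day 12, and KDR, a VEGF receptor and an abundant member, fell from 36.5 and 38.1 to 26 and 22.9 FPKM (log2 change -0.59 ± 0.10 (SE), adjusted p = 7.2e-04). ESAM, a junction protein, went from 0.55 and 0.59 to 4.01 and 3.29 FPKM (log2 change 1.56 ± 0.17 (SE), adjusted p = 4.0e-05). CDH5, VE-cadherin, went from 0.18 and 0.50 to 2.02 and 1.96 FPKM (log2 change 1.17 ± 0.18 (SE), adjusted p = 3.9e-04). ENG, endoglin, went from 3.72 and 4.34 to 11.6 and 11.1 FPKM (log2 change 1.30 ± 0.10 (SE), adjusted p = 4.7e-06). PLVAP, of endothelial diaphragms, rose from 16 and 14.8 to 25.1 and 26.6 FPKM (log2 change 0.71 ± 0.11 (SE), adjusted p = 5.3e-04). CD34, shared by endothelial and blood progenitors, went from 0.25 and 0.59 to 2.46 and 2.08 FPKM (log2 change 1.21 ± 0.22 (SE), adjusted p = 0.0013). TEK, the angiopoietin receptor, fell from 21.9 and 20.1 to 3.85 and 3.83 FPKM (log2 change -2.18 ± 0.14 (SE), adjusted p = 1.1e-06). The rises numbered 4 without day 8 replicate 1, 4 without day 12 replicate 1 and 2 with a filter at 5 FPKM. HBE1, embryonic globin, fell from 1.84 and 2.47 to 0.30 and 0.31 FPKM (log2 change -1.27, adjusted p = 1.7e-05) and GATA1 and GATA2 with it, 3 of 7 blood progenitor genes.

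Secreted proteins of the liver and endoderm rose in 14 of 22 genes and fell in 2 (FOXA3 and VTN), and 14 rose whichever library was left out (median 1.61). AHSG, fetuin, went from 0.74 and 0.86 to 12.9 and 20 FPKM (log2 change 3.25 ± 0.26 (SE), adjusted p = 9.2e-06). APOA2 went from 0.79 and 2.68 to 18 and 19.4 FPKM (log2 change 2.94 ± 0.54 (SE), adjusted p = 0.0046). APOA4 went from 0.16 and 0.29 to 5.8 and 8.76 FPKM (log2 change 2.74 ± 0.19 (SE), adjusted p = 2.0e-06), the last 2 being apolipoproteins. FGG, a fibrinogen chain, rose from 0.34 and 0.48 to 4.2 and 8.22 FPKM (log2 change 2.30 ± 0.26 (SE), adjusted p = 7.2e-05). The list held 0.016% and 0.019% of all FPKM at day 8 and 0.060% and 0.083% at day 12, and the endoderm factors FOXA2, SOX17 and HNF4A were under 1 FPKM in all 4 libraries. With DMSO 16 of the 22 genes rose and 1 fell. The list's share there was 0.021% and 0.037% at day 8 and 0.197% and 0.139% at day 12, above that with PFOS. Of 11 neural and ectoderm genes 5 rose and 2 fell, STMN2 from 0.35 and 0.16 to 3.61 and 3.85 FPKM and SOX3 from 0.14 and 0.40 to 2.46 and 3.89 FPKM among those that rose (log2 changes 1.92 and 1.70). The shares over all genes tested were 19.7% up and 19.6% down.

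WNT genes showed no common direction: 2 of 12 targets rose and 2 fell, 5 of 20 ligands and receptors rose and 8 fell, and 3 of 9 antagonists rose and 3 fell. Over all genes tested 19.7% rose and 19.6% fell. Of the targets 1 fell without day 8 or day 12 replicate 1, and of the ligands and receptors 3 rose without replicate 2 of either day or with equal FPKM totals, and 5 fell without day 12 replicate 1. Among the receptors FZD7 fell from 79.5 and 76.2 to 23 and 24.4 FPKM (log2 change -1.68 ± 0.08 (SE), adjusted p = 2.3e-07). FZD2 went from 32.3 and 28.9 to 20.6 and 20.9 FPKM (log2 change -0.53, adjusted p = 1.5e-04). The ligand WNT5B rose from 4.98 and 5.72 to 15.7 and 14.8 FPKM (log2 change 1.35 ± 0.12 (SE), adjusted p = 1.0e-05). Of the secreted antagonists FRZB fell from 19.8 and 15 to 1.77 and 2.31 FPKM (log2 change -2.59 ± 0.51 (SE), adjusted p = 0.006). SFRP1 went from 169 and 171 to 104 and 112 FPKM and SFRP5 from 216 and 172 to 119 and 114 FPKM (log2 changes -0.65 and -0.73), whereas SFRP2 rose from 0.99 and 0.27 to 7.19 and 7.18 FPKM (log2 change 2.36 ± 0.36 (SE), adjusted p = 0.0011). DKK3 went from 43.9 and 40.8 to 61.7 and 70.2 FPKM (log2 change 0.63, adjusted p = 7.1e-04). Among target genes MSX1 fell from 23.4 and 21.1 to 3.47 and 2.88 FPKM (log2 change -2.48 ± 0.13 (SE), adjusted p = 4.8e-07). CCND1, cyclin D1, rose from 9.1 and 9.31 to 22 and 19.6 FPKM (log2 change 1.09 ± 0.11 (SE), adjusted p = 3.2e-05). TNFRSF19 rose from 26.1 and 24.4 to 36.7 and 34.7 FPKM (log2 change 0.48, adjusted p = 0.0013). LEF1, a nuclear effector, fell from 38.6 and 36.3 to 22.4 and 27.7 FPKM (log2 change -0.57, adjusted p = 0.0091; highest adjusted p without 1 library 0.083). AXIN2, the feedback target most often read as WNT activity, was at 6.03 and 5.18 FPKM at day 8 and 5.6 and 5.48 FPKM at day 12 (log2 change -0.01 ± 0.09 (SE), adjusted p = 0.94).

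In the other signalling lists the counts are to be set against 19.7% of all genes tested that rose and 19.6% that fell. BMP4, a mesoderm ligand, fell from 82.7 and 75.1 to 28.3 and 29.8 FPKM (log2 change -1.41 ± 0.09 (SE), adjusted p = 1.0e-06). FST, follistatin, went from 15.2 and 15.2 to 5.76 and 6.58 FPKM (log2 change -1.18 ± 0.12 (SE), adjusted p = 2.2e-05), among 6 falls and 5 rises of 22 BMP and TGF-beta genes. The rises were 3 without day 8 replicate 1, 2 without day 12 replicate 2 and 3 with equal FPKM totals. IGF2, a fetal growth factor, fell from 1883 and 1370.4 to 520.3 and 478 FPKM (log2 change -1.69 ± 0.18 (SE), adjusted p = 8.3e-05), while the binding proteins IGFBP2 and IGFBP7 rose from 38.8 and 40 to 74.2 and 66.5 FPKM and from 7.72 and 16.8 to 37.4 and 50.7 FPKM (log2 changes 0.82 and 1.84), so that 3 of 11 IGF genes rose and 3 fell. JAG1, a Notch ligand, fell from 39.6 and 39.4 to 23 and 28.7 FPKM (log2 change -0.60, adjusted p = 8.0e-04), and of 13 Notch genes 2 rose and 4 fell (2 falls without day 8 replicate 1 or day 12 replicate 2, and 1 rise without day 8 replicate 1 or day 12 replicate 1).

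Stress and sterol genes fell or did not pass the test, with few rises. Their counts are to be set against 19.6% of all genes tested that fell and 19.7% that rose. Of 15 oxidative stress genes 7 fell and 1 rose: NQO1, a quinone reductase, went from 26.5 and 27.2 to 11.4 and 11.7 FPKM (log2 change -1.15 ± 0.10 (SE), adjusted p = 7.1e-06). FTL, ferritin light chain, went from 1239 and 1247 to 535 and 623 FPKM (log2 change -1.10 ± 0.08 (SE), adjusted p = 2.9e-06). AKR1B10, an aldo-keto reductase, went from 7.13 and 6.03 to 3.03 and 1.53 FPKM (log2 change -1.24 ± 0.21 (SE), adjusted p = 1.0e-03). In the unfolded protein and integrated stress list 7 of 22 fell and 3 rose, with PHGDH and PSAT1, of serine synthesis, going from 266 and 224 to 89.1 and 72.8 FPKM and from 33.8 and 34 to 18.6 and 21.9 FPKM, and ATF3 from 11.6 and 10.8 to 7.14 and 6.69 FPKM (log2 changes -1.59, -0.72 and -0.62). Of 14 p53 response genes 5 fell and none rose, against 2 falls and 1 rise without day 12 replicate 1 and 3 and 1 without day 8 replicate 2, GADD45A going from 45.6 and 48.5 to 24.4 and 28.6 FPKM (log2 change -0.81, adjusted p = 3.2e-05). Of 27 genes of cholesterol and fatty acid synthesis 13 fell and 1 rose (median -0.29). FADS2, a desaturase, fell from 88.6 and 84.9 to 56.7 and 51.9 FPKM (log2 change -0.67, adjusted p = 5.0e-05). Leaving out 1 library gave 9 to 12 falls.

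The same interval with DMSO shares no library with the PFOS comparison. Both were tested in 1 fit with a shared estimate of spread per gene, so the overlap of their calls is not that of independent tests. There 5308 of 14080 genes passed (37.7%), 2746 up (19.5%) and 2562 down (18.2%). Genes that passed in both and moved the same way numbered 3605, which is 65.3% of the PFOS calls and 67.9% of the DMSO calls, and 38 passed in opposite directions. Across the 14080 genes, which are not independent replicates, the 2 log2 changes correlated with r = 0.823. Of the 767 genes that passed with a 2-fold change under PFOS, 692 also passed the same way with DMSO. Cell cycle genes gave 24 falls with PFOS and 23 with DMSO of 25, and sarcomere genes 17 rises and 13 of 24. MYH7 rose in both, to 62.7 and 49.1 FPKM with PFOS and 137 and 148 FPKM with DMSO, and the difference of the changes did not pass (log2 -0.56 ± 0.72 (SE), adjusted p = 0.76).

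The change over time differed between PFOS and DMSO, by a test of the difference itself, in 198 genes (1.41%), with 86 more positive and 112 more negative under PFOS. With libraries scaled to the same FPKM total the split was 71 against 158. The count was 41 and 45 without day 12 DMSO replicates 1 and 2, 67 and 339 without day 12 PFOS replicates 1 and 2, 114 and 100 without day 8 DMSO replicates 1 and 2, and 122 without day 8 PFOS replicate 1. In 142 of the 198 the gap between the treatments was larger at day 12 and in 56 at day 8. In 14 of the genes PFOS gave a rise and DMSO a fall, and in 18 the reverse. The genes below kept the call under every alternative unless it is said that they did not. PDGFRB and CLDN1 are exceptions, as their calls were not followed through the alternatives. Differences are the PFOS change minus the DMSO change in log2. Because of how the lists were chosen, their counts beside the 1.41% are not an independent test.

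**Figure D3:**
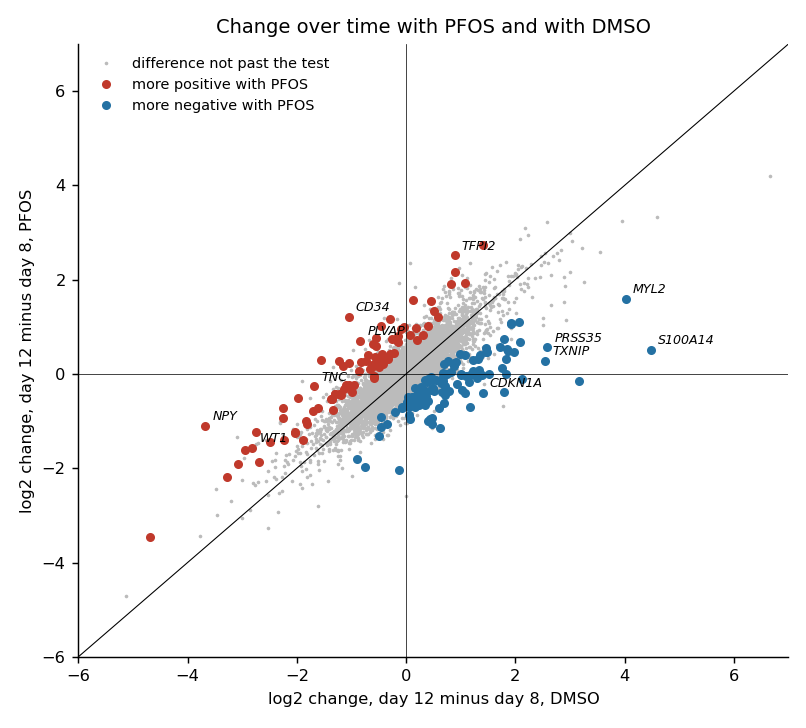
Log2 change in FPKM + 1 from day 8 to day 12 with DMSO (x) and with PFOS (y), 1 point for each of 14080 genes, with the line of equal change. Of the 198 genes whose changes differed, the 86 in red lie above the line and the 112 in blue below it.

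TXNIP, which binds thioredoxin and limits glucose uptake, and ARRDC4, its arrestin-domain relative, showed the clearest pattern. With PFOS TXNIP was at 168 and 133 FPKM at day 8 and 172 and 191 FPKM at day 12, and with DMSO at 26.4 and 28.6 FPKM at day 8 and 173 and 159 FPKM at day 12 (difference -2.27 ± 0.17 (SE), adjusted p = 1.5e-04). The PFOS libraries of day 8 were already near the level that the DMSO libraries reached at day 12. ARRDC4 stood at 22.4 and 17.5 FPKM at day 8 and 16.7 and 20.2 FPKM at day 12 with PFOS and 3.5 and 3.3 FPKM at day 8 and 17.6 and 18.7 FPKM at day 12 with DMSO (difference -2.23 ± 0.17 (SE), adjusted p = 1.5e-04). Neither passed the test over time with PFOS (adjusted p = 0.085 and 0.52), but without day 8 PFOS replicate 1 TXNIP did (log2 change 0.45, adjusted p = 0.022). ARRDC3, another relative, fell with PFOS from 25.5 and 24.3 to 15.7 and 17.8 FPKM and with DMSO from 22.4 and 21.4 to 16.2 and 16.1 FPKM, and its difference did not pass (adjusted p = 0.6).

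CDKN1A, GDF15 and ATF3, genes linked to growth arrest and stress, rose with DMSO and not with PFOS. In their lists the difference passed in 3 of 14 p53 response genes and in 1 of 22 unfolded protein and integrated stress genes, all more negative with PFOS. The share over all genes tested was 1.41%. CDKN1A, the p21 inhibitor of cyclin-dependent kinases, was at 11.2 and 13.3 FPKM at day 8 and 9.15 and 8.97 FPKM at day 12 with PFOS and 7.77 and 8.79 FPKM at day 8 and 24.3 and 22.8 FPKM at day 12 with DMSO (difference -1.80 ± 0.18 (SE), adjusted p = 8.6e-04). GDF15, a stress cytokine, was at 1.41 and 1.04 FPKM at day 8 and 1.0 and 0.96 FPKM at day 12 with PFOS and 1.72 and 1.87 FPKM at day 8 and 5.58 and 4.87 FPKM at day 12 with DMSO (difference -1.32, adjusted p = 0.0027). ATF3, a stress-induced factor, fell with PFOS and rose from 8.81 and 8.73 to 13.5 and 16.4 FPKM with DMSO (difference -1.32, adjusted p = 8.6e-04). The day 12 libraries of the 2 treatments did not overlap in any of the 3. TNFRSF19, a receptor and WNT target, ended at 36.7 and 34.7 FPKM with PFOS and 72.2 and 72 FPKM with DMSO (difference -1.38, adjusted p = 4.3e-04). PRSS35, a protease-like secreted protein, PDLIM1, a LIM protein of actin filaments, and TUBB2B, a beta-tubulin, also ended lower (differences -2.02, -1.39 and -1.77), and S100A14 rose from 0.40 and 0.91 to 46.8 and 26.8 FPKM with DMSO and stayed under 1 FPKM with PFOS (difference -3.96, adjusted p = 3.7e-04). TUBB3, another tubulin, differed by -1.49, adjusted p = 0.012, and lost the call in 3 fits (highest adjusted p = 0.078). MYL2 ended at 1.51 and 3.13 FPKM with PFOS and 14.1 and 17.7 FPKM with DMSO (difference -2.43, adjusted p = 0.0027; adjusted p = 0.084 with a pseudocount of 0.1).

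Some matrix and epicardial genes changed more positively with PFOS than with DMSO. The difference passed in 3 of 21 fibroblast and matrix genes (COL3A1, TNC and PDGFRB) and in 2 of 20 epicardial genes (SFRP5 and WT1), and 1 epicardial gene, CLDN1, was more negative with PFOS. Over all genes tested the difference passed in 1.41%. TNC, tenascin C, was at 53.1 and 41.6 FPKM at day 8 and 39.5 and 38.6 FPKM at day 12 with PFOS and 36.2 and 35.9 FPKM at day 8 and 10.7 and 10.4 FPKM at day 12 with DMSO (difference 1.42 ± 0.15 (SE), adjusted p = 8.6e-04). SFRP5 fell from 135 and 109 to 23.4 and 25.7 FPKM with DMSO, and the difference was 1.53, adjusted p = 0.0027. COL3A1 ended at 326 and 294 FPKM with PFOS and 122 and 130.2 FPKM with DMSO (difference 1.03, adjusted p = 0.0096), WT1 at 19.4 and 20.8 and 4.06 and 4.65 FPKM (difference 1.25, adjusted p = 0.029), and BMP4 at 28.3 and 29.8 and 23.1 and 20 FPKM (difference 0.82, adjusted p = 0.0092). Calls were lost in 2 alternatives for COL3A1, in 9 for WT1 (highest adjusted p = 0.13) and in 1 for BMP4. In the same direction SLC9A3R1, SMOC2, DPEP1 and NPY differed by 1.34, 1.33, 1.48 and 2.58, with adjusted p = 0.016, 0.019, 0.027 and 0.049, and each lost its call in 4 or more alternatives. LCN1 fell from 49.8 and 43.6 to 0.72 and 0.97 FPKM with DMSO (difference 1.24, adjusted p = 0.02, lost in 7 alternatives) and HOXB4 from 16.1 and 16.2 to 3.62 and 2.78 FPKM (difference 0.78, adjusted p = 0.033, lost in 10).

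Of 11 endothelial genes the difference passed in 3 (PLVAP, ESAM and CDH5), all more positive with PFOS, against 1.41% of all genes tested. Over time 7 of the 11 rose and 2 fell with PFOS, and 2 rose and 3 fell with DMSO. PLVAP rose with PFOS and with DMSO was at 18.7 and 24.5 FPKM at day 8 and 11.8 and 11.3 FPKM at day 12 (difference 1.55 ± 0.16 (SE), adjusted p = 8.6e-04). CD34 with DMSO was at 4.28 and 6.11 FPKM at day 8 and 2.19 and 1.74 FPKM at day 12 (difference 2.26 ± 0.31 (SE), adjusted p = 0.0061), ESAM at 3.49 and 4.47 FPKM at day 8 and 4.44 and 4.35 FPKM at day 12 (difference 1.44, adjusted p = 0.016) and CDH5 at 3.2 and 4.63 FPKM at day 8 and 3.1 and 2.82 FPKM at day 12 (difference 1.47, adjusted p = 0.018). For CD34, ESAM and CDH5 the day 8 PFOS libraries lay far below the day 8 DMSO libraries, and at day 12 the treatments were closer. The calls of ESAM and CDH5 were lost in 4 and 6 alternatives (highest adjusted p = 0.086 and 0.1). TFPI2 differed by 1.63, adjusted p = 0.024 and lost its call in 7.

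In cholesterol and fatty acid synthesis 13 of 27 genes fell with PFOS and 3 with DMSO, where 10 rose. With F-53B 21 of the 27 fell and none rose, and 8 changed more positively with PFOS than with F-53B by the test. The difference from DMSO was past the test in 6 of the 27, against 1.41% of all genes tested. CYP51A1, a demethylase of the sterol pathway, fell from 35.6 and 33.7 to 24.3 and 26 FPKM with PFOS and stood at 30.9 and 24.9 FPKM at day 8 and 34.3 and 35.2 FPKM at day 12 with DMSO (difference -0.76, adjusted p = 0.018). INSIG1, the sterol sensor's anchor, and HMGCS1, an early enzyme of the pathway, differed by -0.84 and -0.79 (adjusted p = 0.028 and 0.034). Each of these 3 calls was lost in 4 or more alternatives, with adjusted p up to 0.15, and day 8 DMSO replicate 2 was the lower of its pair in all 3. Of genes outside these groups, IGFBP2 rose with PFOS and was at 40.6 and 34.6 FPKM at day 8 and 39.6 and 39.2 FPKM at day 12 with DMSO (difference 0.75, adjusted p = 0.012). ANGPTL4, a PPAR target, was at 5.17 and 5.39 FPKM at day 8 and 7.67 and 5.22 FPKM at day 12 with PFOS and 9.05 and 8.21 FPKM at day 8 and 3.8 and 3.48 FPKM at day 12 with DMSO (difference 1.28, adjusted p = 0.0092). IGFBP2 lost the call without either day 12 DMSO library and ANGPTL4 without the second (highest adjusted p = 0.073 and 0.063). APOA4 differed by 1.33, adjusted p = 0.035 and lost the call in 11 alternatives. It was the 1 gene of 22 hepatic and endoderm genes past this test, and the list's median difference was -0.55.

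**Figure D4:**
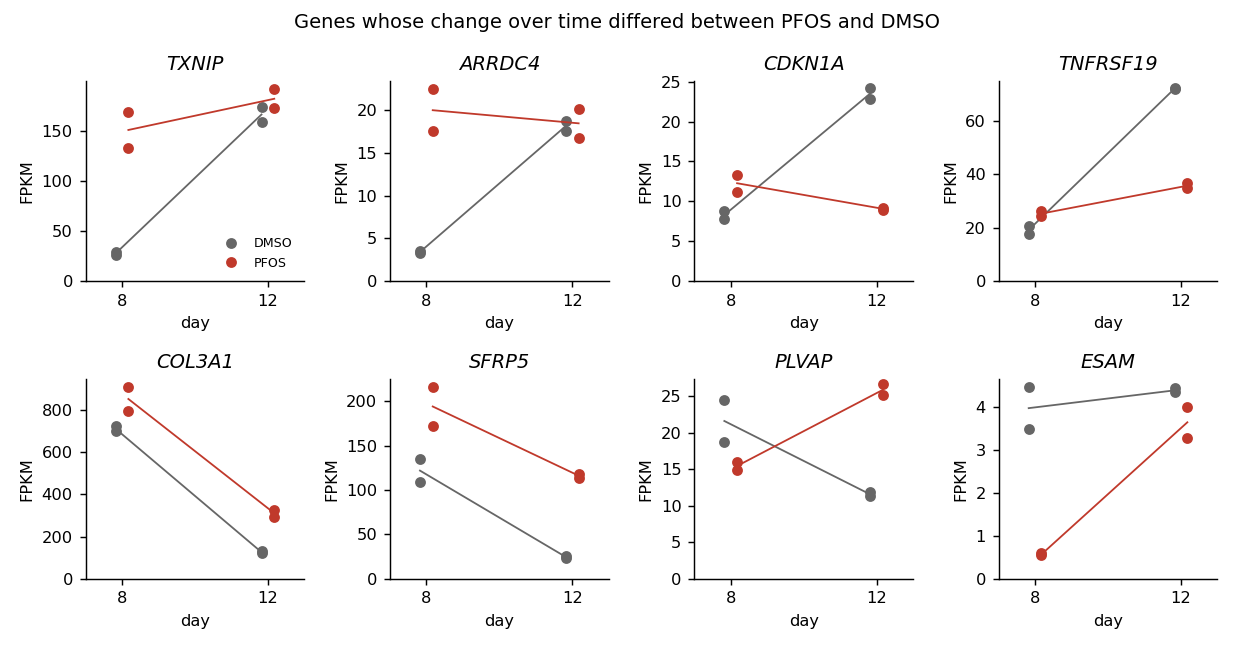
FPKM (y, from 0) at day 8 and day 12 (x) for 8 genes with DMSO (grey) and PFOS (red); points are libraries and lines join the means of 2. TXNIP and ARRDC4 rise with DMSO from a low day 8 level and change less with PFOS, and PLVAP rises with PFOS and falls with DMSO.

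F-53B was given at the same dose and days, so the time changes of the 2 related sulfonates can be compared directly, as 1 pair. F-53B differs from PFOS by an ether oxygen in the chain and a terminal chlorine. Its 2 day 12 libraries were the least alike of any group (r = 0.989). In FPKM + 1 they were over 2-fold apart in 134 genes, against 10 to 39 genes in the other groups. The changes differed in 1783 genes (12.7%), of which 705 were more positive and 1078 more negative with PFOS. In 1502 of them the gap between the compounds was larger at day 12 than at day 8. The count was 829 and 648 without day 8 F-53B replicates 1 and 2, 910 without day 8 PFOS replicate 1, 1083 without day 12 PFOS replicate 1 and 1113 without day 12 F-53B replicate 2. Intervals of differences are 95% limits not corrected for the number of genes.

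ALDH1A2 was at 0.58 and 0.40 FPKM at day 8 and 27.8 and 45 FPKM at day 12 with F-53B, against 3.07 and 2.71 FPKM at day 12 with PFOS (difference -3.15, -3.71 to -2.60, adjusted p = 9.6e-05). ITLN1, a mesothelial lectin, reached 20.8 and 35.6 FPKM with F-53B and 1.64 and 2.06 FPKM with PFOS (difference -3.12, -3.79 to -2.46, adjusted p = 2.9e-04). UPK1B, a uroplakin of mesothelium, differed by -2.09 (-2.69 to -1.49, adjusted p = 0.0016). The F-53B libraries of day 12 lay far above those of PFOS in these genes, though they differed from each other. FN1, fibronectin, rose from 255 and 231 to 569.6 and 531 FPKM with F-53B and fell from 513 and 544 to 281 and 293 FPKM with PFOS (difference -2.05, -2.34 to -1.76, adjusted p = 2.4e-05). FZD7 was at 66.3 and 62.5 FPKM at day 8 and 62 and 57.1 FPKM at day 12 with F-53B (difference -1.56, -1.80 to -1.33, adjusted p = 3.1e-05). CBLN2, a synaptic organiser, and ARRDC3 differed in the same direction (differences -2.12 and -1.27, adjusted p = 6.0e-05 and 1.5e-04). SFRP2, KCNIP2 and CRHBP did too (differences -2.24, -2.67 and -2.63, adjusted p = 0.025, 0.041 and 0.034), with calls lost in 7 or 8 alternatives.

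In the other direction NAV1, a neuron navigator protein, rose from 7.23 and 9.18 to 27.4 and 27.1 FPKM with PFOS and was at 4.43 and 4.76 FPKM at day 8 and 4.27 and 2.88 FPKM at day 12 with F-53B (difference 1.93, 1.51 to 2.35, adjusted p = 2.9e-04). KCNQ5, a potassium channel, rose from 7.74 and 8.79 to 18.7 and 19.3 FPKM with PFOS and went from 10.2 and 10.3 to 5.76 and 5.47 FPKM with F-53B (difference 1.88, 1.63 to 2.12, adjusted p = 2.4e-05). LOXL4, a lysyl oxidase, was at 11 and 13.2 FPKM at day 8 and 14.4 and 12.1 FPKM at day 12 with PFOS and 13.9 and 16.6 FPKM at day 8 and 4.1 and 3.52 FPKM at day 12 with F-53B (difference 1.88, 1.5 to 2.25, adjusted p = 1.9e-04). APOA1 was at 24.5 and 20.9 FPKM at day 8 and 32.8 and 32.9 FPKM at day 12 with PFOS and 33 and 29.1 FPKM at day 8 and 13.8 and 8.23 FPKM at day 12 with F-53B (difference 1.97, 1.26 to 2.69, adjusted p = 0.0063). In these 4 the day 12 libraries of the 2 compounds did not overlap. PPP2R2B, a phosphatase subunit, and PFKP, of glycolysis, also changed more positively with PFOS (differences 1.82 and 1.78, adjusted p = 0.0091 and 0.0039), as did CORIN and WFIKKN1 (2.40 and 1.85, adjusted p = 0.017 and 0.043), with calls lost in 4 and 8 alternatives.

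For 4 genes with a large change under PFOS, the difference between the compounds did not pass the test. For PLK1 the difference was 0.03 (-0.22 to 0.27, adjusted p = 0.9), for CDK1 -0.08 (-0.33 to 0.17, adjusted p = 0.69) and for MSX1 -0.27 (-0.69 to 0.14, adjusted p = 0.38). For MYH7 it was 0.02 (-1.68 to 1.72, adjusted p = 0.99), an interval too wide to show likeness, and the levels themselves were far apart, with 0.16 and 0.080 FPKM at day 8 and 11.6 and 2.86 FPKM at day 12 under F-53B. Cell cycle medians were -1.14 with PFOS and -1.26 with F-53B, and the fibroblast and matrix medians -0.88 and 0.01.

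**Figure D5:**
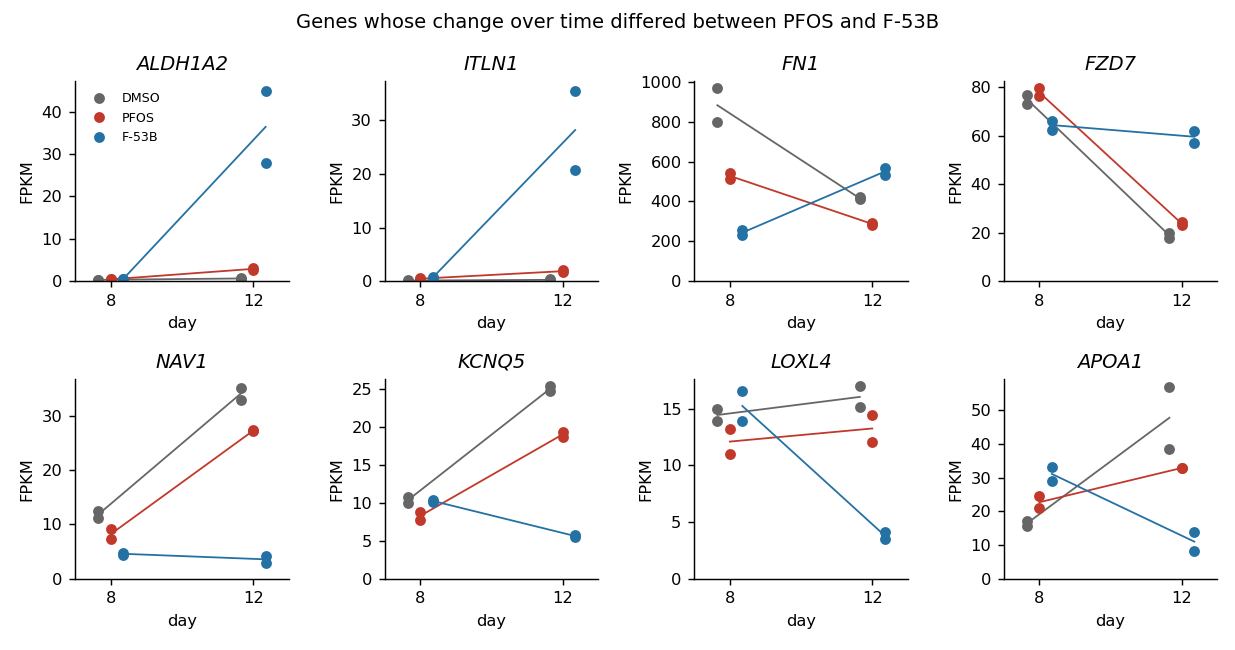
FPKM (y, from 0) at day 8 and day 12 (x) for 8 genes with DMSO (grey), PFOS (red) and F-53B (blue); points are libraries and lines join the means of 2. At day 12 ALDH1A2, ITLN1, FN1 and FZD7 are higher with F-53B than with PFOS, and NAV1, KCNQ5, LOXL4 and APOA1 lower.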

How the data were processed

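RNA of 12 H9 libraries was measured on the BGISEQ-500 platform. The authors deposited FPKM per gene with 2 decimals, per the file headers. Per the submitters' processing notes, HISAT, Bowtie2 and RSEM were used with GRCh38.p11; their versions, and the read depth, are not given in the sources used here. Of 20042 genes listed, 1002 held no value, and 8 to 10 lines per library that name no gene were dropped. The filter asked for 1 FPKM or more in 2 or more libraries and left 14080 genes.

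On log2(FPKM + 1), which understates changes of low genes, limma 3.58.1 (R 4.3.3) fitted 1 mean per group to all 12 libraries with 6 residual degrees of freedom, robust moderation and a mean-variance trend. Tests were two-sided, with Benjamini-Hochberg adjustment over all genes in the fit. The procedure was tested on simulated data. Members and gene lists (34) were chosen with earlier results of these data known. The rule for names took, from genes past the test whose mean reached 5 FPKM and whose days did not overlap, the 12 largest rises and falls. It added up to 4 members per list by adjusted p, 16 genes always given, and the 8 largest differences each way from DMSO and from F-53B. Part of these are given, and further names were picked with their values in view. Alternatives were other pseudocounts, filters and scalings, fewer libraries, no trend, a replicate block and each library left out. Promoters are RefSeq's on GRCh38.p14, 1 per gene, and gene positions are GENCODE 29. Near-identical copies may exchange reads.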

Additional observations from a re-analysis of the deposited data

Results flagged for a closer look

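Genes are given here because their change from day 8 to day 12 differed between PFOS and another treatment, by limma's test of the difference itself; values are the PFOS change minus the other change in log2(FPKM + 1). Against DMSO the more positive changes with PFOS were NPY 2.58, CD34 2.26, TFPI2 1.63, PLVAP 1.55, SFRP5 1.53, DPEP1 1.48, CDH5 1.47, ESAM 1.44, TNC 1.42, SLC9A3R1 1.34, SMOC2 1.33, APOA4 1.33, ANGPTL4 1.28, WT1 1.25, LCN1 1.24, COL3A1 1.03, BMP4 0.82, HOXB4 0.78 and IGFBP2 0.75. The more negative ones were S100A14 -3.96, MYL2 -2.43, TXNIP -2.27, ARRDC4 -2.23, PRSS35 -2.02, CDKN1A -1.80, TUBB2B -1.77, TUBB3 -1.49, PDLIM1 -1.39, TNFRSF19 -1.38, ATF3 -1.32, GDF15 -1.32, INSIG1 -0.84, HMGCS1 -0.79 and CYP51A1 -0.76. Of these 34 genes, 14 kept the call under every alternative and 20 lost it in at least 1.

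Against F-53B the more positive changes with PFOS were CORIN 2.40, APOA1 1.97, NAV1 1.93, KCNQ5 1.88, LOXL4 1.88, WFIKKN1 1.85, PPP2R2B 1.82 and PFKP 1.78, and the more negative ones ALDH1A2 -3.15, ITLN1 -3.12, KCNIP2 -2.67, CRHBP -2.63, SFRP2 -2.24, CBLN2 -2.12, UPK1B -2.09, FN1 -2.05, FZD7 -1.56 and ARRDC3 -1.27. Of these 18 genes, 13 kept the call under every alternative and 5 lost it in at least 1. The PFOS libraries enter both differences, so the 2 sets of values are not independent.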

How the results depend on the processing

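Under the pseudocounts 0.1 and 5, no filter, a filter at 5 FPKM, equal FPKM totals, median-of-ratios scaling and no moderation trend, every count over all genes past the test stayed within 1.5 times its value. With 1 library left out, where the lone library of a group is assumed to vary like the others, PFOS over time gave 3747 to 4911 genes, DMSO over time 3299 to 3911 and F-53B over time 2479 to 3729. In the same fits the difference of PFOS and DMSO gave 41 to 339 genes, and that of PFOS and F-53B 648 to 2103. With only the libraries compared in the fit, the last fell to 1077. Of 135 genes called over time and followed through the alternatives, 123 kept the call everywhere and 12 lost it in at least 1. The 135 include FABP3 and PKM, which are not named above. They leave out some genes that are, such as TDGF1, GATA4 and FOXA3. Of the 12, 4 lost it in alternatives other than leaving 1 library out. NKX2-5 and NPPB did with a pseudocount of 0.1 (adjusted p = 0.059 and 0.058) and the replicate block (0.064 and 0.067). CDKN1A did without a filter (0.051). HMGCS1 did without a filter (0.063), without robust moderation and trend (0.058) and with only the libraries compared (0.057). The sign of 2 genes near 0 turned: with 1 PFOS library left out, AXIN2 was at -0.10 to 0.082 (above 0 without day 8 replicate 1 or day 12 replicate 2) and ARRDC4 at -0.27 to 0.064 (above 0 without day 8 replicate 1 or day 12 replicate 1). The cause was not tested. With 2 libraries per group and unknown depth, genes near 1 FPKM are the least certain.

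With the replicate number as a replicate block the counts were 5255 over time with PFOS, 156 for the difference from DMSO and 1548 for that from F-53B. Differences between replicates 1 and 2 correlated across genes with r = 0.11 between the 2 PFOS days and from -0.38 to 0.19 over all pairs of groups. Such weak correlations cannot show whether the numbers pair the samples, and the labels do not say.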

Other observations

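TXNIP, ARRDC4, GDF15, CDKN1A and ATF3 were also looked up with F-53B, a choice made after their values were seen. TXNIP with F-53B was at 109.9 and 103 FPKM at day 8 and 169 and 141 FPKM at day 12, ARRDC4 at 15.7 and 16.5 FPKM at day 8 and 18.3 and 15.7 FPKM at day 12 and GDF15 at 0.61 and 0.61 FPKM at day 8 and 0.87 and 0.77 FPKM at day 12. CDKN1A was at 5.29 and 4.24 FPKM at day 8 and 7.82 and 10.3 FPKM at day 12 and ATF3 at 16.9 and 15.3 FPKM at day 8 and 8.05 and 8.39 FPKM at day 12. The PFOS change minus the F-53B change did not pass the test for TXNIP (-0.26, 95% interval -0.62 to 0.11, adjusted p = 0.35), ARRDC4 (-0.18, -0.55 to 0.20, adjusted p = 0.54), GDF15 (-0.34, -0.70 to 0.02, adjusted p = 0.19) or ATF3 (0.27, -0.02 to 0.56, adjusted p = 0.21), and passed for CDKN1A (-1.20, -1.60 to -0.79, adjusted p = 0.0031).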
